A study of Mus musculus with 2 samples.

Results

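The genes described are the glycosyltransferases and related enzymes that build and trim the sugar chains of glycoproteins, read in Neuro2a cells after an siRNA against Tmem132a. They were chosen by gene symbol alone, as probe sets assigned to exactly 1 gene whose symbol belongs to 1 of the enzyme families of O- and N-glycan synthesis (Galnt, C1galt1, Gcnt, Alg, Stt3, Man, Mgat, B3gal, B4gal, B3gnt, St3, St6, St8, Fut, Pofut, Pomt, Pomgnt1, Dpy19l and Ext). This gave 253 probe sets for 122 genes, of 18193 genes with a probe set of their own on the array. Signals strong enough to compare were found for 76 of the 122 genes, and 46 were too dim. The symbols also bring in enzymes outside the label, such as the lysosomal and cytosolic mannosidases Man2b1 and Man2c1, the chaperone C1galt1c1, the heparan sulfate enzymes of the Ext family and enzymes that mainly build glycolipids.

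Neuro2a is a mouse neuroblastoma line. The cells had received either an siRNA against Tmem132a (also named mKIAA1583) or a non-specific control siRNA, and total RNA of each was read on 1 Affymetrix mouse expression array. Dose and time after transfection are not given in the sources used here. With 1 array per group there is no replicate error and no test, so each value compares these 2 arrays and not the conditions in general, and it cannot be told apart from a difference between the 2 cultures. The number of arrays limits the precision of every ratio.

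Sugar chains are attached to secreted and membrane proteins along the route through the endoplasmic reticulum (ER) and the Golgi. N-glycans are built in advance on the lipid dolichol by the ALG enzymes in the ER membrane, moved as a block to asparagine by the oligosaccharyltransferase, trimmed by mannosidases, and then branched, galactosylated, fucosylated and sialylated in the Golgi. Mucin-type O-glycans start instead with a single N-acetylgalactosamine placed on serine or threonine by a GALNT enzyme and are extended 1 sugar at a time. Neuronal cells carry in addition O-mannose glycans on dystroglycan, polysialic acid on adhesion molecules and sialylated glycolipids called gangliosides.

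The labels were checked first. Tmem132a, the gene targeted, had a signal of 435.6 on the Tmem132a siRNA array, against 1825.5 on the control siRNA array, or 23.9% of that level. For the Tmem132a siRNA sample, the description field carries the wording of the control, whereas both the title and the treatment label give Tmem132a siRNA. All 13 of the measured markers of sympathetic neurons and neuroblastoma were bright enough to read, with summed signals of 52320 on the Tmem132a siRNA array and 63882.6 on the control siRNA array, and all 13 log2 ratios were below 0 (from -0.67 to -0.03). Of 10 fibroblast, 8 glial, 9 blood and 10 epithelial and endothelial markers, 0, 2, 1 and 1 were bright enough. Their summed signals were 292.1, 1071.1, 526.6 and 454.4 on the Tmem132a siRNA array, against 472.7, 1280, 291.7 and 370.1 on the control siRNA array. Among those bright enough, the glial Mbp and Cnp lay at -0.18 and -0.43, and the blood marker Csf1r at -0.10. The epithelial Epcam read 146.1 with the Tmem132a siRNA and 70.9 with the control siRNA, a log2 ratio of 1.04. The part of these markers in the results below was not tested.

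The enzymes of glycan synthesis differed little as a whole, with a few genes well apart from the rest. Throughout, the log2 ratio is the signal of the Tmem132a siRNA array over that of the control siRNA array, so that 1 is 2-fold higher and -1 is 2-fold lower, and a gene's value averages those of its probe sets whose mean signal reached the median of the array (77.25). Of the 76 measured genes, 59 lay within 1.5-fold (77.6%, against 82.1% of all 10678 measured genes). A total of 3 were at least 2-fold higher (3.95%), namely Galnt3, B3galt5 and St3gal3, where 2.1% of all genes were. Only Dpy19l1 and Galnt12 were at least 2-fold lower (2.63%), where 2.44% of all genes were. These shares are close to the background, and nothing is read from them about the enzymes as a group. At 1.5-fold, 5 genes were higher (6.58%, against 8.82% of all genes) and 12 lower (15.8%, against 9.11% of all genes). Of these, B3galt5, Fut11 and Man2b1 reached 1.5-fold only through probe sets that attained the signal of 77.25 on 1 array alone. That was the Tmem132a siRNA array for B3galt5 and the control siRNA array for Fut11 and Man2b1, in each case the brighter array. Nothing is read from the counts at 1.5-fold either. The median log2 ratio of the 76 genes was -0.08, beside 0.02 over all genes, and 43 of them (56.6%) were below 0, as were 48.2% of all genes.

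**Figure D1:**
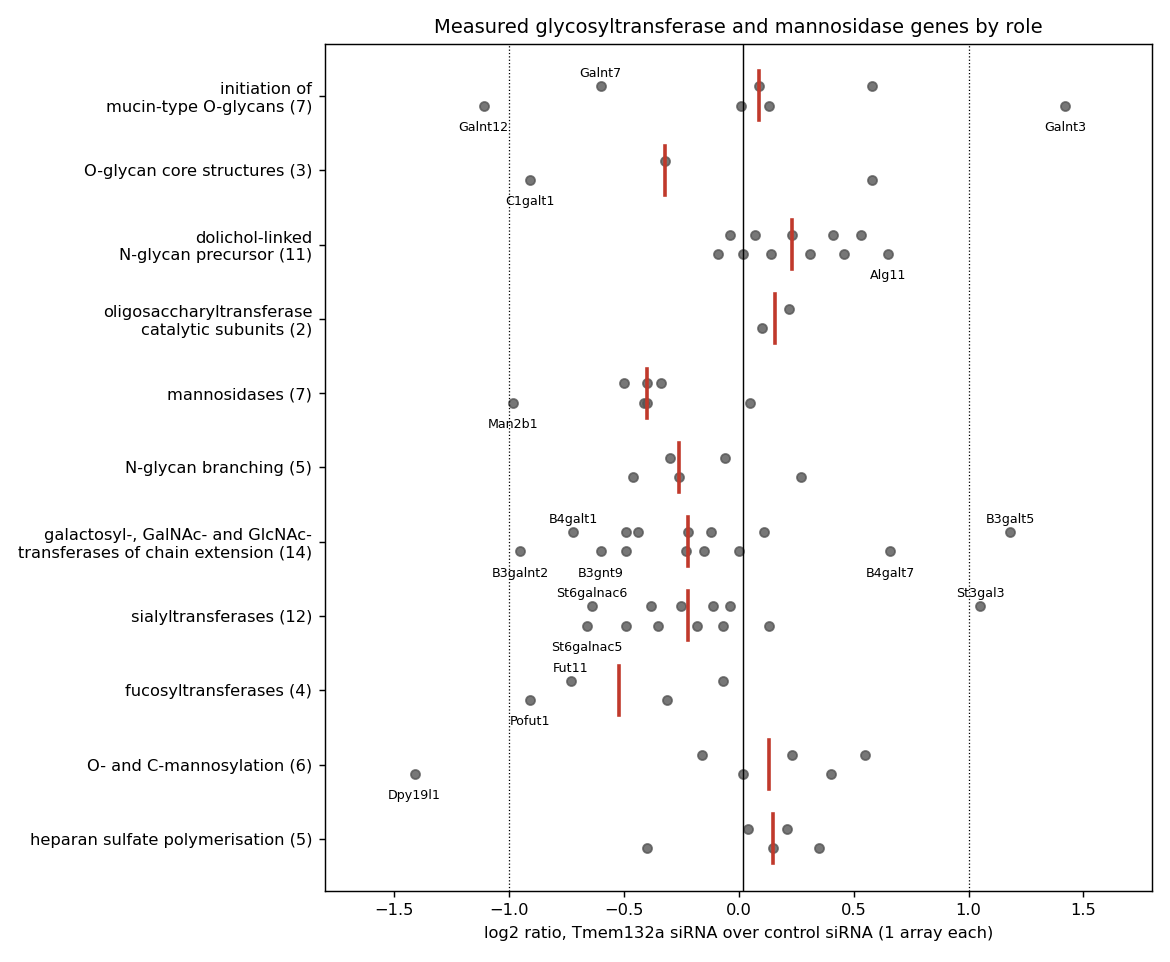
Log2 ratio of each of the 76 measured genes (points), Tmem132a siRNA over control siRNA, by role, with the number of genes in brackets, the median of each role (red bars), the median of all genes (solid line) and 2-fold (dotted lines). Genes at least 1.5-fold higher or lower are named; the dolichol-linked precursor enzymes lie mostly to the right of the solid line, and the mannosidases and fucosyltransferases to its left.

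The only internal measure of technical error here is the scatter of probe sets assigned to the same gene on the same arrays. It leaves out error between the arrays and between the cultures, and such probe sets need not read the same transcript. Over the 31 genes with several usable probe sets, the log2 ratios of a gene scattered around their mean with an SD of 0.46, against 0.39 over the 5072 such genes of the whole array. In 20 of the 31 genes all probe sets lay on the same side of 0, and in 11 they lay on both sides. The other 45 genes rest on 1 probe set each. A ratio under about 0.46 is therefore within the disagreement of probe sets of these genes. A larger ratio is not thereby beyond the error between the arrays, which could not be measured. The ratios were wider for dim genes: among all genes 15.2% of those with a brightest probe set below 150 differed 2-fold, but 0.901% of those above 2000.

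**Figure D2:**
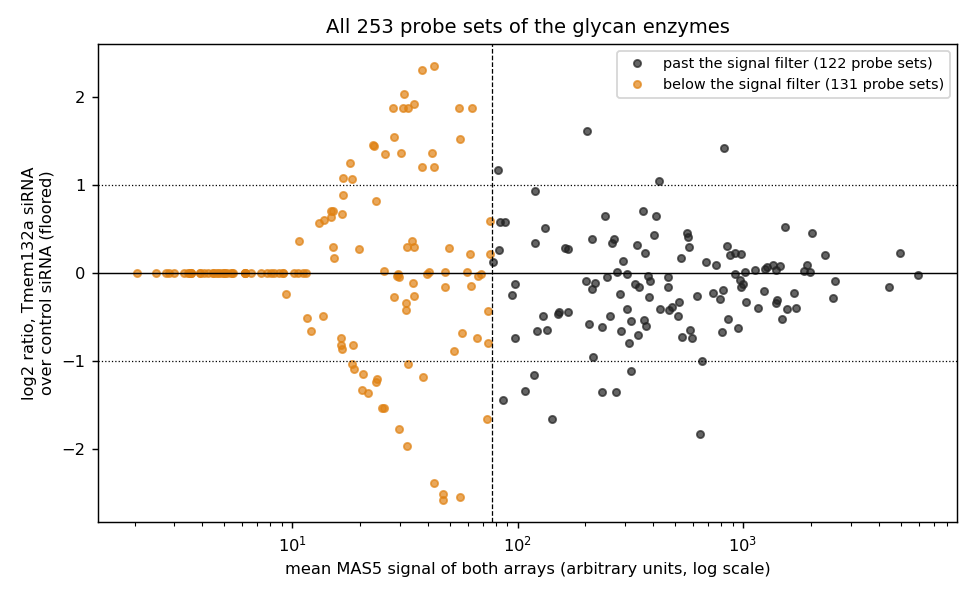
Log2 ratio, Tmem132a siRNA over control siRNA, against the mean MAS5 signal of both arrays (log scale) for all 253 probe sets, with the 122 past the signal filter in black and the 131 below it in orange; the dashed line is the filter and the dotted lines are 2-fold. Ratios spread widely to both sides at low signals and narrow towards high ones.

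Mucin-type O-glycans start with the GALNT enzymes, and this family held 2 of the 5 genes that differed 2-fold, 1 on each side. With 7 measured genes in the family, each is 14.3% of it, against 2.1% of all genes higher and 2.44% lower. Nothing is read from shares of so few genes. Galnt3, which glycosylates among others the phosphate hormone FGF23, had a signal of 1195.6 on the Tmem132a siRNA array and 446.5 on the control siRNA array by 1417588_at. This is a log2 ratio of 1.42, or 2.68-fold higher, the highest among the 76 genes. The other probe sets of Galnt3 were dim but lay the same way, with 86.9 and 53.2 on the Tmem132a siRNA array, against 23.6 and 11.8 on the control siRNA array, where the last lies under the floor of 14.5 used for dim signals. Galnt12 had a signal of 202.3 with the Tmem132a siRNA and 435.7 with the control siRNA, a log2 ratio of -1.11 (2.15-fold lower). Its value rests on a single probe set.

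Galnt7 prefers peptides that already carry a first N-acetylgalactosamine. Its 3 probe sets had signals of 1485.2, 751.3 and 228.4 on the Tmem132a siRNA array, against 1949.6, 1157.2 and 396.1 on the control siRNA array. All 3 were lower with the Tmem132a siRNA, with a gene value of -0.60 and a range from -0.79 to -0.39. The broadly expressed initiators Galnt1 and Galnt2 showed nearly equal signals on both arrays. The brightest probe set of Galnt1 read 2486.1 with the Tmem132a siRNA and 2643.3 with the control siRNA, and that of Galnt2 read 1987.1 with the Tmem132a siRNA and 1961.1 with the control siRNA. Their gene values were 0.01 and 0.09, with all 5 probe sets between -0.09 and 0.22. Galnt11 lay at 0.13, and Galnt6, with signals of 99.7 with the Tmem132a siRNA and 66.7 with the control siRNA, at 0.58. The remaining 11 of the 18 initiating enzymes on the array were too dim, among them the neuronal Galnt9 and Galnt13.

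The next step of O-glycan synthesis adds galactose to form the core 1 structure. Its enzyme C1galt1 was lower by all 3 of its probe sets, with signals of 621.3, 261.5 and 133.1 on the Tmem132a siRNA array, against 987.6, 425.6 and 339.9 on the control siRNA array. The gene value was -0.91 (1.88-fold lower), with a range from -1.35 to -0.67. C1galt1c1, the ER chaperone without which C1galt1 does not fold, read 460.4 with the Tmem132a siRNA and 575.4 with the control siRNA (-0.32). Gcnt1, which branches core 1 into core 2, lay at 0.58 from dim signals of 104.9 with the Tmem132a siRNA and 70.1 with the control siRNA, and Gcnt2, Gcnt3 and Gcnt7 were too dim.

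The gene that stood lowest was Dpy19l1, a member of the DPY19 family, which in the worm and in mammals attaches mannose to tryptophan by a carbon bond, in particular in thrombospondin repeats. Its probe sets 1433759_at and 1456533_at had signals of 284.5 and 440.7 on the Tmem132a siRNA array, against 1002.6 and 880.3 on the control siRNA array. The log2 ratios were -1.82 and just short of -1, and the gene value was -1.41 (2.65-fold lower). Both probe sets thus lay far to the lower side, by unequal amounts, and the brighter one alone is just under 2-fold. By usable probe sets its relatives went the other way by less: Dpy19l3 lay at 0.40 and Dpy19l4 at 0.23, both within 1.5-fold. A further probe set of Dpy19l3, below the signal filter, read 63.2 with the Tmem132a siRNA and 85.4 with the control siRNA (-0.43).

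**Figure D3:**
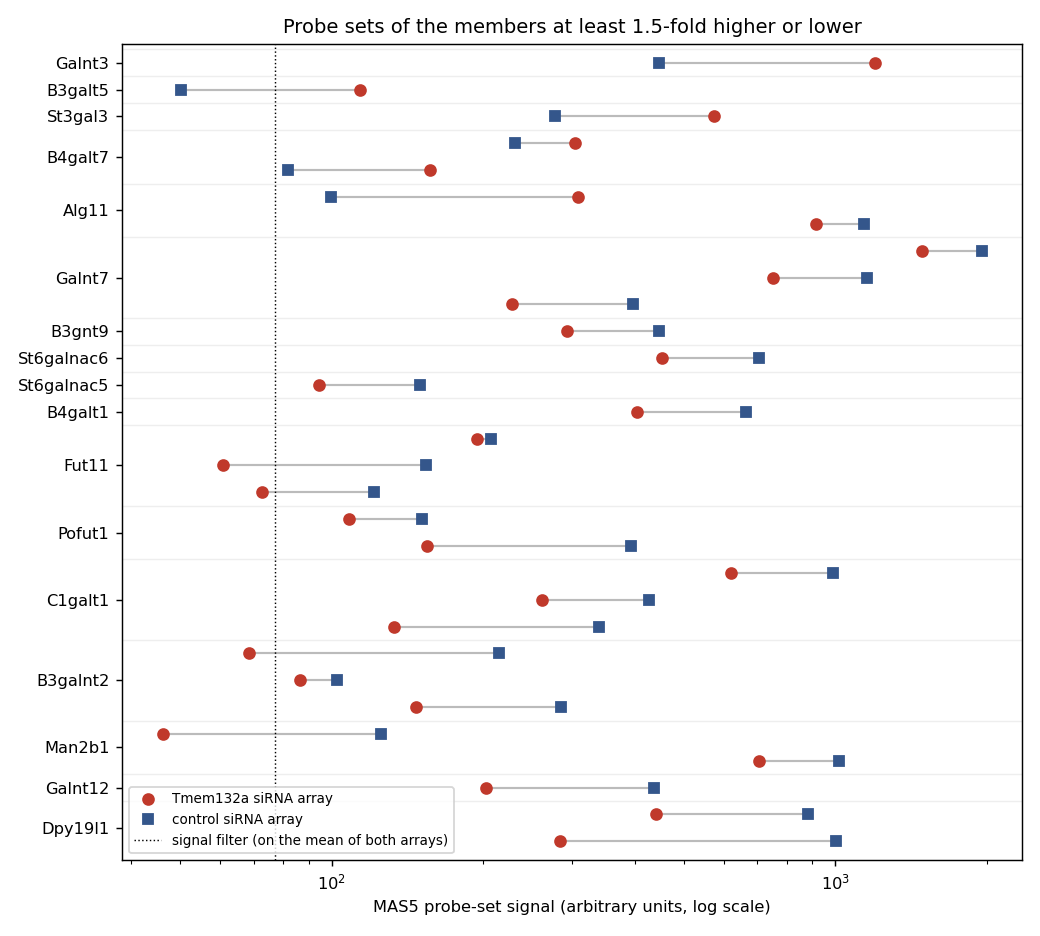
MAS5 signal (log scale) on the Tmem132a siRNA array (red circles) and the control siRNA array (blue squares) of each usable probe set of the 17 genes at least 1.5-fold higher or lower, ordered by gene value. For Galnt3 the red circle lies at 1195.6 and the blue square at 446.5; the probe sets of Alg11 lie on opposite sides, while those of C1galt1 and Galnt7 all lie the same way.

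Promoters were read for every gene with an entry, as the bases around the annotated start of the gene in RefSeq (mouse build GRCm38.p6). The aim was to show which of a few short motifs they hold, some of them tied to stress responses. Of the 122 genes, 91 had an entry, and Galnt12 was not among them. The bases before the start had a median GC content of 59.2% in the promoters of these 91 genes, against 52.4% over all promoters. The searched window ran from 250 bases before to 50 bases after the start, on both strands. The motifs were CCAAT, the E-box CACGTG, the C/EBP-ATF element TGATGNAA of the integrated stress response, the unfolded protein response element TGACGTGG, and the ER stress response element, which is CCAAT and CCACG with 9 bases between them and so overlaps the first motif. CCAAT occurred in 33 of the 91 genes (36.3%, against 41.1% of 27025 genes) and CACGTG in 11 (12.1%, against 8.09%). TGATGNAA occurred in 2 of them, Galnt11 and Fut8 (2.2%, against 4.51%), and TGACGTGG in 0 (against 0.714%). The ER stress response element occurred only in Alg12 (1.1%, against 0.137% of all genes). These are matches of letters, not binding sites.

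The 250 bases before the start are printed for the highest and the lowest gene, for St3gal3 with its repeated CCAAT letters, and for Alg12 with the ER stress element. They lie at chr2:66124794-66125043 for Galnt3, chr9:24503141-24503390 for Dpy19l1, chr4:118134947-118135196 for St3gal3 and chr15:88819319-88819568 for Alg12, all 4 on the minus strand. They run 5′ to 3′ along the gene, and capitals mark the matches.
Galnt3: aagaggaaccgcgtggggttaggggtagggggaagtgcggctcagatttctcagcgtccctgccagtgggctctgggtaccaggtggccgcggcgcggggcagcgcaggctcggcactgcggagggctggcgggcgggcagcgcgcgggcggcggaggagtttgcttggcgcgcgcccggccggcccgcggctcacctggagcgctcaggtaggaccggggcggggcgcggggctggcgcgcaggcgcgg
Dpy19l1: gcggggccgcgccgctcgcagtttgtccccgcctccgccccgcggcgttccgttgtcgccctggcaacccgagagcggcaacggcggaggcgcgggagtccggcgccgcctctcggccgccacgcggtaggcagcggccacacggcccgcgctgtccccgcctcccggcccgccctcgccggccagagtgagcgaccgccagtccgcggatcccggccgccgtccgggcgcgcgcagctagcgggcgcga
St3gal3: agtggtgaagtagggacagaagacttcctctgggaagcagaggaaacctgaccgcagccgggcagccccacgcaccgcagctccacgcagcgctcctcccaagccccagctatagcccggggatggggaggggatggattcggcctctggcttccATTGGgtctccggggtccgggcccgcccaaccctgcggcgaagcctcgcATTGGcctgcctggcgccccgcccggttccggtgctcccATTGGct
Alg12: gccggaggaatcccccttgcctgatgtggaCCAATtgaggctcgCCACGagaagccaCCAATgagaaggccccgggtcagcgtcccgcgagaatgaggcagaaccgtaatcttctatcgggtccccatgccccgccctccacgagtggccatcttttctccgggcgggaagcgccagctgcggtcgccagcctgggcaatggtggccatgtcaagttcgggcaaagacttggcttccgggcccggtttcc
The stretches of Galnt3 and Dpy19l1, at opposite ends of the ratios, held none of the motifs and were rich in G and C (76.8% and 80.8%). That of St3gal3 held the CCAAT letters 3 times, each on the strand opposite to the gene. In Alg12 the ER stress element spans -220 to -202 from the start.

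The ALG enzymes, which assemble the N-glycan precursor on dolichol, were all measurable and mostly higher on the Tmem132a siRNA array, by small amounts. Of the 11 genes 9 were above 0 (81.8%, against 51.8% of all genes), with a median of 0.23, and 0 reached 2-fold. Alg8, which adds a glucose, read 1814.2 with the Tmem132a siRNA and 1257.6 with the control siRNA (0.53). Alg2, a mannosyltransferase of the first steps, read 2339 with the Tmem132a siRNA and 1699.6 with the control siRNA (0.46). Alg13, whose product joins with that of Alg14 to add the second sugar, lay at 0.41 and Alg14 at -0.04. Alg1, which adds the first mannose, had a ratio of 0.31, Alg3 0.23, Alg6 0.14, Alg5 0.07 and Alg9 0.02.

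For Alg11 and Alg12 the probe sets disagreed. Alg11, which adds mannoses on the cytosolic side, had signals of 913.2 and 308.1 on the Tmem132a siRNA array, against 1138 and 99.9 on the control siRNA array. The gene value of 0.65 is thus a mean of -0.32 from the brighter and 1.62 from the dimmer probe set, and by the brighter one alone Alg11 was lower. Alg12, which adds a mannose on the luminal side and holds the ER stress element shown above, had ratios of 0.65, -0.27 and -0.64 and a gene value of -0.09. Stt3a and Stt3b, the catalytic subunits of the oligosaccharyltransferase that move the finished chain to protein, lay at 0.22 and 0.10. The brightest probe set of Stt3b read 5956.9 with the Tmem132a siRNA and 6027 with the control siRNA.

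After transfer the chain is cut back by mannosidases. Of the 7 measured mannosidases 6 were below 0 (85.7%, against 48.2% of all genes), with a median of -0.40. The Golgi enzymes that trim mannose, Man1c1 before and Man2a1 and Man2a2 after Mgat1 starts the first branch, had close gene values. Man2a1 read 1347.2 on the Tmem132a siRNA array and 1793.7 on the control siRNA array (-0.41), Man2a2 367.7 with the Tmem132a siRNA and 484.6 with the control siRNA (-0.40), and Man1c1 1239 with the Tmem132a siRNA and 1564.3 with the control siRNA (-0.34). A dim probe set of Man2a2, below the signal filter, read 35.3 with the Tmem132a siRNA and 110.5 with the control siRNA (-1.65). With no signal filter, which includes it, Man2a2 was at least 2-fold lower. Man1a2 lay at -0.50 over 3 probe sets that ranged from -0.74 to -0.11. The exception was Man1b1, the mannosidase of early trimming and ER-associated degradation, with 1277.6 with the Tmem132a siRNA and 1230.2 with the control siRNA (0.05). Man2c1, a cytosolic enzyme, lay at -0.40 by 2 probe sets that were nearly equal, -0.42 and -0.39. Apart from Man1a2 and Man2b1, these gene values lay within the SD of 0.46 between probe sets of a glycan enzyme.

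Man2b1, the lysosomal alpha-mannosidase, had the lowest value among the mannosidases. Its probe sets read 706.7 and 46.3 with the Tmem132a siRNA, against 1014.2 and 125.6 with the control siRNA. The gene value of -0.98 falls just short of 2-fold, and it is an average of -0.52 from the bright and -1.44 from the dim probe set. The dim one passed the signal filter through the control siRNA array alone, and without it Man2b1 lies at -0.52.

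**Figure D4:**
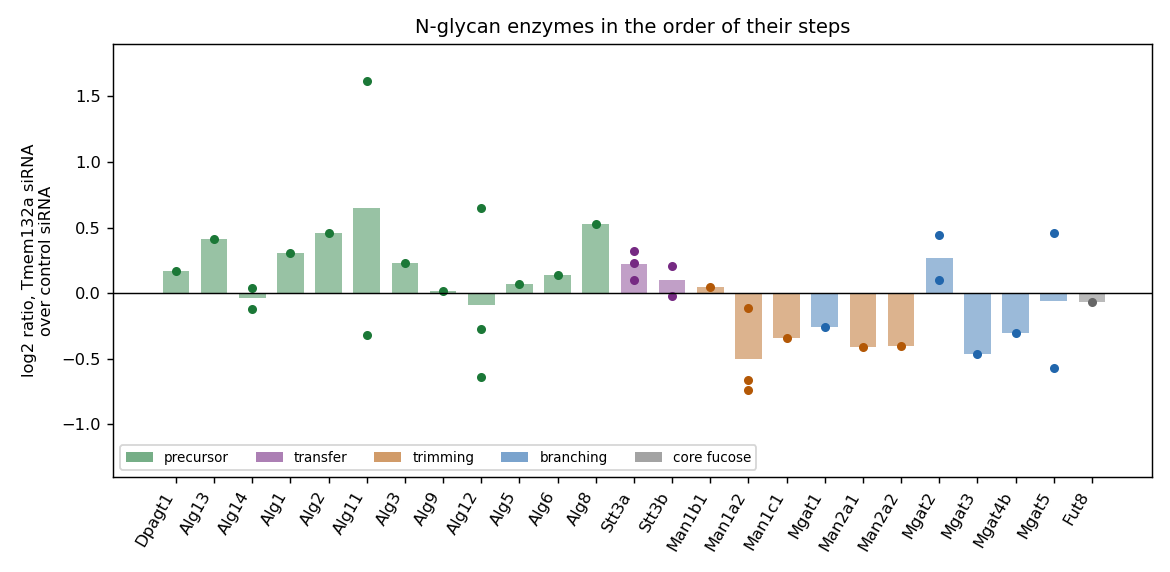
Log2 ratio, Tmem132a siRNA over control siRNA, of N-glycan enzymes in the order in which they act, from the first sugar on dolichol (Dpagt1, shown for orientation) to branching and core fucose; bars are gene values and points are single probe sets. Bars of the precursor and transfer steps lie mostly above 0, up to 0.65 for Alg11, and those of trimming and branching mostly below 0, with Man1b1 (0.05) and Mgat2 (0.27) as exceptions.

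The MGAT enzymes then set the number of branches. Mgat1, which starts the first branch, read 565 on the Tmem132a siRNA array and 678.3 on the control siRNA array (-0.26). Mgat4b lay at -0.30 (1268.4 with the Tmem132a siRNA and 1566.6 with the control siRNA), and Mgat3, which adds the bisecting sugar, at -0.46 from dim signals of 127.1 with the Tmem132a siRNA and 175.3 with the control siRNA. Mgat2, which starts the second branch, was above 0 by both probe sets (0.44 and 0.10). For Mgat5, which makes the highly branched chains linked to cell adhesion and migration, the probe sets gave 0.46 and -0.57, so that no direction can be given. The 5 measured genes all lay within 1.5-fold, and 5 others were too dim.

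Galactose, N-acetylglucosamine and N-acetylgalactosamine are added next by the B4GALT, B3GALT, B3GNT, B3GALNT and B4GALNT families. Of the 14 measured genes of these families 10 were below 0 (71.4%, against 48.2% of all genes), with a median of -0.22. All measured genes of the B3GALNT and B4GALNT families, namely B3galnt1 (-0.22), B3galnt2 (-0.95) and B4galnt4 (-0.49), were among the 10. B4galt1, the main galactosyltransferase of N-glycans, read 404.1 with the Tmem132a siRNA and 663.6 with the control siRNA (-0.72, or 1.64-fold lower). B3gnt9 read 293.8 with the Tmem132a siRNA and 445.9 with the control siRNA (-0.60). B4galnt4, which places N-acetylgalactosamine on N-glycan ends, lay at -0.49. B3gnt2, which makes poly-N-acetyllactosamine, had a gene value of -0.49, but its probe sets gave 0.17 and, from one that passed the signal filter through the control siRNA array alone, -1.16. B4galt2, B4galt3 and B4galt5 lay at -0.44, -0.12 and -0.15. B4galt6, which makes the lactosylceramide from which gangliosides derive, lay at 0.11 with 4 probe sets from -0.28 to 0.65. B3galt1 averaged near 0, but its 4 usable probe sets ranged from -0.52 to 0.35, and the brightest, with 1221.6 on the Tmem132a siRNA array and 1752.5 on the control siRNA array, was the lowest.

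B3galnt2 acts on the O-mannose glycan of alpha-dystroglycan. Its usable probe sets had signals of 147, 86.5 and 68.6 on the Tmem132a siRNA array, against 284.7, 102.6 and 215 on the control siRNA array. All 3 were lower with the Tmem132a siRNA, by widely different amounts, with a gene value of -0.95 (1.93-fold lower) and a range from -1.65 to -0.25. The probe set at -1.65 passed the signal filter through the control siRNA array alone, and without it the gene value is -0.60. The enzymes that start and extend O-mannose lay elsewhere: Pomt2 was higher by both probe sets (0.71 and 0.39, gene value 0.55), Pomt1 lay at 0.02 and Pomgnt1 at -0.16. B4galt7 and B3galt6 build the linker by which glycosaminoglycan chains hang on proteoglycans. B4galt7 was higher by both probe sets, with 303.7 and 157.1 on the Tmem132a siRNA array, against 231.7 and 81.9 on the control siRNA array (gene value 0.66), and B3galt6 lay at -0.23.

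B3galt5, which makes type 1 chains, rests on dim signals. Its sole usable probe set read 113.8 on the Tmem132a siRNA array and 50.2 on the control siRNA array (1.18), and it passed the signal filter through the brighter array alone. Its other 3 probe sets were all under 30 on both arrays. In all, 10 of the 122 usable probe sets passed through 1 array alone. In 5 of them that was the Tmem132a siRNA array (B3galt5, Galnt6, Gcnt1, St8sia6 and 1 of those of B3galt1), and in 5 the control siRNA array (B3galnt2, B3gnt2, Man2b1 and 2 of Fut11). B3galt5, Galnt6, Gcnt1 and St8sia6 have no other usable probe set.

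Sialic acid, which ends most chains on the neuronal surface, is added by the ST3, ST6 and ST8 families of transferases. Of 12 measured sialyltransferases 10 were below 0 (83.3%, against 48.2% of all genes), with a median of -0.22. St3gal3, which sialylates glycoproteins and gangliosides, was apart from them, with a signal of 573.2 on the Tmem132a siRNA array and 277.2 on the control siRNA array (1.05, 2.07-fold higher). Its second probe set was dim and lay the same way (71.7 with the Tmem132a siRNA and 3.9 with the control siRNA, which is under the floor). Both are probe sets of the kind that reads several transcripts of a gene. Without St3gal3 the other 11 ranged from -0.66 to 0.13.

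The lowest sialyltransferases were St6galnac5 and St6galnac6, which take part in alpha-series ganglioside synthesis. St6galnac6 read 452 with the Tmem132a siRNA and 706.3 with the control siRNA (-0.64), and St6galnac5 94.4 with the Tmem132a siRNA and 149.6 with the control siRNA (-0.66). The other probe sets of St6galnac5 were too dim. They read 68.8 and 25.7 with the Tmem132a siRNA, against 69.3 and 31 with the control siRNA. With no signal filter, which includes them, St6galnac5 lies at -0.32. St6galnac2 and St6galnac3, which act on O-glycans, lay at -0.49 and -0.35. St8sia3, an enzyme that links sialic acids to each other, lay at -0.38 (676.8 with the Tmem132a siRNA and 788.7 with the control siRNA by its brighter probe set). St3gal5, which makes the simplest ganglioside from lactosylceramide, had a ratio of -0.11, St6gal1 -0.25, and St3gal2 and St3gal4 -0.07 and -0.18. The polysialyltransferases of the adhesion molecule NCAM, St8sia2 and St8sia4, were too dim on these arrays, as were St3gal1 and St8sia1.

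Fucose is added by the FUT enzymes and, directly to protein, by Pofut1 and Pofut2. All 4 measured genes were below 0, where 48.2% of all genes were. Pofut1, which modifies the EGF repeats of Notch receptors, had signals of 154.4 and 108.5 on the Tmem132a siRNA array, against 392.8 and 151.5 on the control siRNA array. Both of these probe sets were lower, with ratios of -1.35 and -0.48 and a gene value of -0.91 (1.89-fold lower). The other probe set of Pofut1 was too dim, with 59.1 with the Tmem132a siRNA and 65.2 with the control siRNA (-0.14). With no signal filter, which includes it, the gene value is -0.66. Pofut2, which acts on thrombospondin repeats, was lower by all 4 probe sets but by less (-0.31, range -0.61 to -0.16). Fut11 had ratios of -0.09, -0.74 and -1.34 and a gene value of -0.73, with signals of 194.4, 72.7 and 60.8 on the Tmem132a siRNA array, against 207.3, 121.5 and 154 on the control siRNA array. The 2 lower ratios come from probe sets that passed the signal filter through the control siRNA array alone, and without them Fut11 lies at -0.09. Fut8, which adds core fucose to N-glycans, read 949.4 with the Tmem132a siRNA and 999 with the control siRNA (-0.07). The other 6 fucosyltransferases were too dim.

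The EXT genes, which polymerise heparan sulfate, all lay within 1.5-fold by their usable probe sets. Ext1 and Ext2, which form the polymerase, read 943.1 and 1149.3 with the Tmem132a siRNA, against 814.9 and 1119.2 with the control siRNA (0.21 and 0.04). Extl1, Extl2 and Extl3 lay at 0.35, 0.15 and -0.40. Dim probe sets of Ext1 and Ext2, below the signal filter, read 98.5 and 82.4 with the Tmem132a siRNA, against 26.7 and 28.6 with the control siRNA. With no signal filter, which includes all dim probe sets, Ext1 was at least 2-fold higher and Ext2 lay at 0.79.

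Genes of neighbouring steps that do not belong to these families were read for comparison, from lists of subunits, sugar donors, transporters and tethers. Of 131 such genes 114 were measured, 0 were 2-fold higher (against 2.1% of all genes) and 0 were 2-fold lower (against 2.44%), 8 were at least 1.5-fold higher (7.02%, against 8.82% of all genes) and 9 lower (7.89%, against 9.11% of all genes), and the median was 0.08. The list furthest from 0 was that of Golgi tethers and enzyme-sorting proteins, with a median of 0.32. In it 17 of 18 genes were above 0 (94.4%, against 51.8% of all genes). The COG complex, which returns glycosylation enzymes within the Golgi, had all 8 subunits above 0 by gene value, from 0.12 to 0.66. Of these, 5 lay within 1.5-fold. The probe sets of Cog4 lay on both sides of 0, from -0.20 to 0.35. Those of Cog1 (gene value 0.61) ranged from 0.29 to 1.41, and the brightest read 1527.9 with the Tmem132a siRNA and 1228.4 with the control siRNA. Cog6 read 1266.7 on the Tmem132a siRNA array and 799.6 on the control siRNA array (0.66), and Cog8 739.3 with the Tmem132a siRNA and 391.4 with the control siRNA by its brightest probe set (0.66). Golph3, which holds transferases in the Golgi, lay at 0.51 with probe sets from 0.00 to 1.46, and its relative Golph3l at -0.24.

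The donor side was mixed. Dpm1, the catalytic subunit of dolichol-phosphate-mannose synthase, read 3678 with the Tmem132a siRNA and 2089 with the control siRNA by its brightest probe set (gene value 0.71), while Mpdu1, which is needed to use that donor, read 221.8 with the Tmem132a siRNA and 398.1 with the control siRNA (-0.84). The 9 dolichol genes had a median of 0.17. The non-catalytic subunits of the oligosaccharyltransferase had a median of -0.02 over 10 genes, with Ost4 at -0.60 and Krtcap2 and Ddost at 0.32 and -0.32. Genes of glucose trimming and quality control had a median of 0.08 over 11 genes, with Mogs, which removes the first glucose, at -0.74 and Edem3 at 0.39. All 20 genes of nucleotide sugar synthesis lay within 1.5-fold, with Fpgt at 0.51 and Gnpnat1 at 0.49 the furthest. Among 12 nucleotide sugar transporters (median 0.12), Slc35b2, which carries the sulfate donor, lay at -0.66 and Slc35b3 at 0.59.

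The lists for other chains spread to both sides. Enzymes of heparan and chondroitin sulfate had a median of -0.07 over 15 genes. Sulf1, an extracellular sulfatase, lay at 0.81 and Pxylp1 at -0.79, and Sulf2 read 5443.3 with the Tmem132a siRNA and 9133.3 with the control siRNA by its brightest probe set (-0.75). Pomk of the O-mannose pathway lay at 0.56 and Pomgnt2 at -0.26, with a median of -0.12 over 4 genes. Sialidases and lysosomal glycosidases had a median of -0.19 over 8 genes, with Manba, the lysosomal beta-mannosidase, at -0.64 and Naglu at -0.57. Among 7 genes of O-GlcNAc and Notch sugars (median 0.05), Lfng, which extends the fucose that Pofut1 adds, read 156.5 with the Tmem132a siRNA and 258 with the control siRNA (-0.72), and Rfng lay at 0.30.

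**Figure D5:**
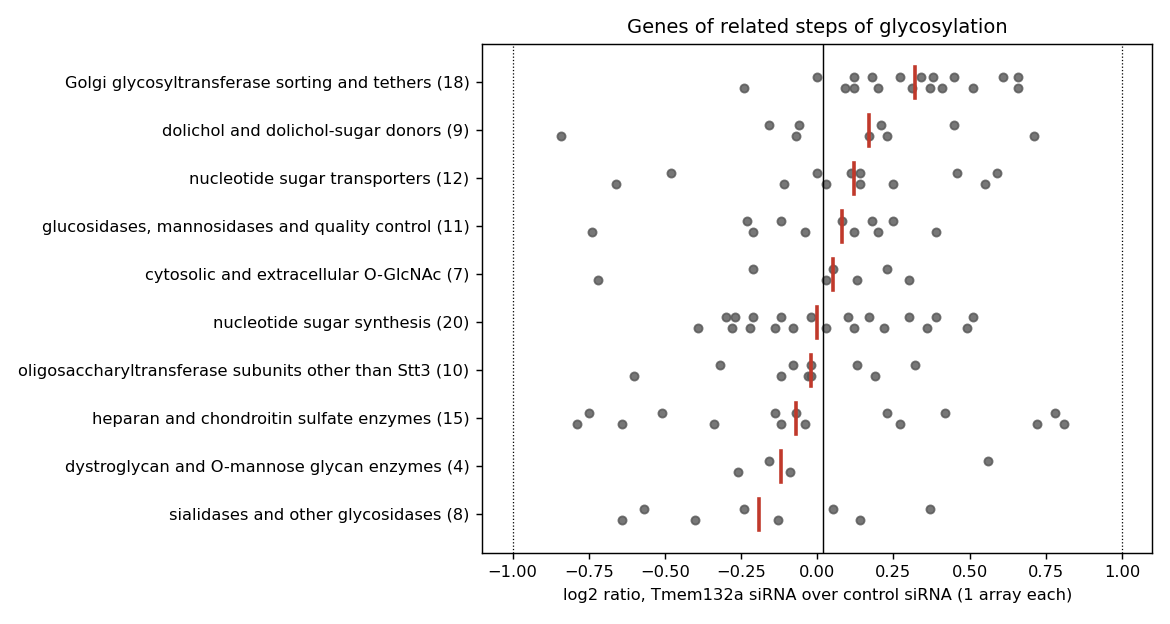
Log2 ratio, Tmem132a siRNA over control siRNA, of 114 genes of related steps that are not among the 122 (points), by list, with the number of genes in brackets, list medians (red bars), the median of all genes (solid line) and 2-fold (dotted lines). No point reaches 2-fold, and the tethers and sorting proteins lie furthest to the right, with a median of 0.32.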

How the data were processed

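Signal intensity per probe set, on a linear scale, was deposited by the authors for 1 array per group; it comes from MAS5, per the submitters' processing notes; version and scaling are not given in the sources used here. Both deposited columns had a 2% trimmed mean of 500.003. Of 45101 probe sets 64 controls were left out. Platform annotation gave 34945 probe sets 1 symbol, 932 several and 9160 none; all 122 symbols matched RefSeq by Entrez identifier. Signals below the 20th percentile (14.5) were set to it, and probe sets whose mean signal was under the median (77.25) were left out. The detection calls named in the series design text were not used here. Gene values are mean log2 ratios. No test was possible with single arrays, and 2-fold marks a difference. Named genes are those at least 1.5-fold, the brightest of each role, and the listed extremes; others are examples. Roles, lists and promoter motifs were chosen with earlier results of these data known. The procedure was run on simulated data with bright changed genes, large changes and little noise. That run cannot show how it performs for dim genes or small differences. Alternatives changed scaling, filter, floor, probe-set summary and fold. Python 3.11.15, numpy 2.4.6, pandas 2.3.3, scipy 1.17.1, statsmodels 0.14.6 and matplotlib 3.10.9 were used.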

Additional observations from a re-analysis of the deposited data

How the results depend on the processing

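No paired analysis was possible because each group has 1 array. Under 11 alternatives (no scaling, a median ratio of 0, quantile normalization, loess (span 0.3), no signal filter, a pseudocount of 79.2, a stricter filter at the 75th percentile (462.8), no floor, the brightest probe set, no x, s or a probe sets, and, added after seeing the data, the filter signal reached on both arrays), 16 of the 17 genes at least 1.5-fold kept their side of 0 wherever they had a value. The exception, Alg11, had a ratio of -0.32 by its brightest probe set and with the stricter filter. Not every alternative could move these genes. Both columns already had the same trimmed mean, and no usable probe set of the 17 genes read below the floor. For genes with 1 usable probe set, such as Galnt3, the brightest probe set is that same set. Galnt3 alone was 2-fold under all 11. Dpy19l1 was just under it by its brightest probe set, B3galt5 lay at 0.08 with no filter and 0.58 with the pseudocount, and St3gal3 and Galnt12 lay at 0.87 and -0.87 with the pseudocount. Man2b1 passed it with quantile normalization, with loess and when probe sets of the x, s and a kinds were dropped, and Pofut1 by its brightest probe set (-1.35). Counts of genes 2-fold higher and lower, 3 and 2, were 9 and 9 with no filter (7.2% and 4.84% of all genes), 1 and 1 with the stricter filter (0.642% and 1.31%), 1 and 1 with the pseudocount (0.459% and 0.74%), 2 and 2 with both arrays at the filter signal (1.13% and 1.65%), and 5 and 12 at 1.5-fold (8.82% and 9.11%). The number of genes behind these counts and the medians changed with some settings. In place of 76 it was 122 with no filter, 48 with the stricter filter, 66 without x, s or a probe sets and 72 with both arrays at the filter signal. The median over the genes measured stayed between -0.13 and -0.06. That of the mannosidases stayed between -0.41 and -0.36 and that of the precursor enzymes between 0.14 and 0.23. Other medians moved more: fucosyltransferases -0.52 to -0.13 (brightest probe set), O- and C-mannosylation 0.13 to -0.78 (stricter filter), branching -0.26 to 0.01 and chain extension -0.22 to -0.11 (no filter), O-glycan cores -0.32 to -0.62 (both arrays) or -0.04 (no filter), heparan sulfate 0.15 to 0.35 (no filter), and sialyltransferases -0.22 to -0.35 (no x, s or a). The count of related genes 2-fold higher, 0, was 1 (Chpf2) with the stricter filter and by the brightest probe set. Signals near background limit what can be said of the dim genes.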

Other observations

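The 131 probe sets of these genes below the signal filter had signals of at most 98.5 on the Tmem132a siRNA array and 110.5 on the control siRNA array, and 66 of them were brighter on the Tmem132a siRNA array and 65 on the control siRNA array. In 42 both signals were under the floor of 14.5. Of the rest, 21 were higher by 2-fold or more and 18 were lower by as much, with any signal under the floor set to it. The same counts were not made over all probe sets below the filter, so nothing is read from them. Ratios of 2-fold or more appear on both sides at these signals. Among them B4galnt1, which makes the gangliosides GM2 and GD2, a surface antigen of neuroblastoma, had a probe set that read 6.2 with the Tmem132a siRNA and 86.8 with the control siRNA, while its other probe set read 6.2 with the Tmem132a siRNA and 4.5 with the control siRNA. Galnt5 had 16.2 with the Tmem132a siRNA and 94.5 with the control siRNA, St3gal6 10.8 with the Tmem132a siRNA and 82.3 with the control siRNA by its brightest probe set, and B3galt4, another ganglioside enzyme, 59.7 with the Tmem132a siRNA and 3.1 with the control siRNA. Fut2 had 74.3 with the Tmem132a siRNA and 10.6 with the control siRNA. For B4galnt1, St3gal6, B3galt4 and Fut2 the dimmer signal of the probe set that differed was under the floor, so the floor sets the size of that ratio. For Galnt5 it was not. These genes were chosen after their values were seen, and each value stands without a second array.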
